A study of Bos taurus with 6 samples.

Results

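RBPJ is the DNA-binding protein through which NOTCH receptors act on transcription, and its effect on a gene depends on the partners bound to it. RBPJ and 8 of these partners are described here in bovine embryos: the coactivators MAML1, MAML2, MAML3, SNW1, KAT2A and KAT2B, and the corepressors SPEN and CIR1. The members were chosen by gene symbol, and all 9 were found among the 15314 named genes of the deposited table, each on 1 row. Messenger RNA was sequenced from late morulae collected 6 days after in vitro fertilization, in 6 libraries of 15 pooled embryos each. One group of 2 libraries had received small interfering RNA (siRNA) against RBPJ, another group of 2 an siRNA against NOTCH1, and the control group of 2 a nonspecific siRNA. All 3 groups were thus siRNA-injected, and no uninjected embryos were analysed here. Whether the replicates stem from different oocyte collections is not stated, so p-values measure only the spread between these libraries, which could be technical.

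In the textbook account of the pathway, a ligand on a neighbouring cell triggers cleavage of the receptor, and the freed intracellular domain enters the nucleus and binds RBPJ. Mastermind proteins of the MAML family lock onto that pair and bring in histone acetyltransferases, which opens the target gene. Without the intracellular domain, RBPJ holds corepressors such as SPEN and CIR1, which bring histone deacetylases. No protein sequences of the members were at hand, so none are printed.

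The values are taken as scaled counts, that is read counts divided by the submitters' factor for each library, as judged from the values. Some low values do not follow 1 factor per library, and whether the submitters also corrected gene by gene, as for transcript length, is not known. Levels are therefore compared between libraries for a gene, and give no ranking of genes by molecules. Where a transcript is called low, or markers are summed, this refers to scaled counts alone. Library totals ran from 10365700 to 10815600, equal to roughly 9650000 to 13600000 reads, and the deepest library was replicate 1 of the RBPJ knockdown. Differences were tested on log2(scaled count + 1) with limma over the 12070 named genes that averaged 10 or more, and a call needs a Benjamini-Hochberg adjusted p below 0.05. Of the 9 members 8 entered the test, and MAML3, with a mean of 7.04, did not. Embryonic identity was checked on POU5F1, a pluripotency factor, at 10911 to 12942 in the 6 libraries, and on the trophectoderm factor CDX2, at 624 to 976. Other markers on the same lists varied to differing degrees. TFAP2C had 3658 to 4503 and KLF4 5958 to 7319. KRT8 had 7578 to 16107, NANOG 125 to 200, TFAP2A 6.37 to 31.1 and IFNT2 3.08 to 18.4, and SOX2 had no row. Of markers of other cells, the white blood cell gene PTPRC stood at 0 to 11.3 and the summed cumulus, granulosa and fibroblast list (10 of 12 in the table) at 779 and 833 in the RBPJ knockdown, 692 and 803 in the NOTCH1 knockdown and 688 and 833 in the control. The summed blood list (8 of 8 in the table) came to 2406 and 2944 in the RBPJ knockdown, 2036 and 2560 in the NOTCH1 knockdown and 2332 and 3323 in the control, most of it from CSF1R and HBA. Oocyte transcripts (16 of 16 in the table) summed to 339 and 578 in the RBPJ knockdown, 248 and 556 in the NOTCH1 knockdown and 605 and 1014 in the control. The part of these markers in the results below was not tested.

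RBPJ fell in the embryos that had received its own siRNA. Its scaled count was 121 and 94.5 in the RBPJ knockdown libraries, against 447 and 391 in the control libraries. Both knockdown libraries lay far below both control libraries and below both NOTCH1 knockdown libraries. The group means were 108 ± 18.5 in the RBPJ knockdown and 419 ± 39.6 in the control (SD, n = 2 each), so the transcript was 74.3% lower. On the log2 scale the fitted difference was -1.96 (standard error 0.18, 95% interval -2.35 to -1.57; limma, adjusted p = 0.00143). In bulk RNA, fewer cells with the transcript and less of it per cell cannot be told apart. RBPJ was the single call of this comparison, which is 0.00829% of the 12070 genes tested, and 0.058% of them had a fold change of at least its size. The call was lost when variances were moderated without their trend on expression level (limma, adjusted p = 0.326), with the fold change as before.

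After the NOTCH1 siRNA, RBPJ had 361 and 400, a range that overlaps the control values of 447 and 391. Its log2 fold change against the control was -0.14, with a 95% interval of -0.53 to 0.25 (limma, adjusted p = 0.91). A drop of the size seen in the RBPJ knockdown lies outside that interval. Set directly against the NOTCH1 knockdown, the RBPJ knockdown was lower in RBPJ by 71.7% (log2 fold change -1.82, standard error 0.18; limma, adjusted p = 0.00321; 0.00829% of genes called). That direct call was lost without replicate 1 of the NOTCH1 knockdown (limma, adjusted p = 0.0937), without its replicate 2 (adjusted p = 0.0985) and without the trend (adjusted p = 0.318). By group mean the order was thus RBPJ knockdown, NOTCH1 knockdown and control from low to high, and the upper pair did not separate beyond its spread. RBPJL, a relative of RBPJ that does not bind the NOTCH intracellular domain in mouse, was near 0 throughout: 1.54 and 1.03 in the RBPJ knockdown, 1.02 and 2.16 in the NOTCH1 knockdown, and 0 and 1.09 in the control.

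**Figure D1:**
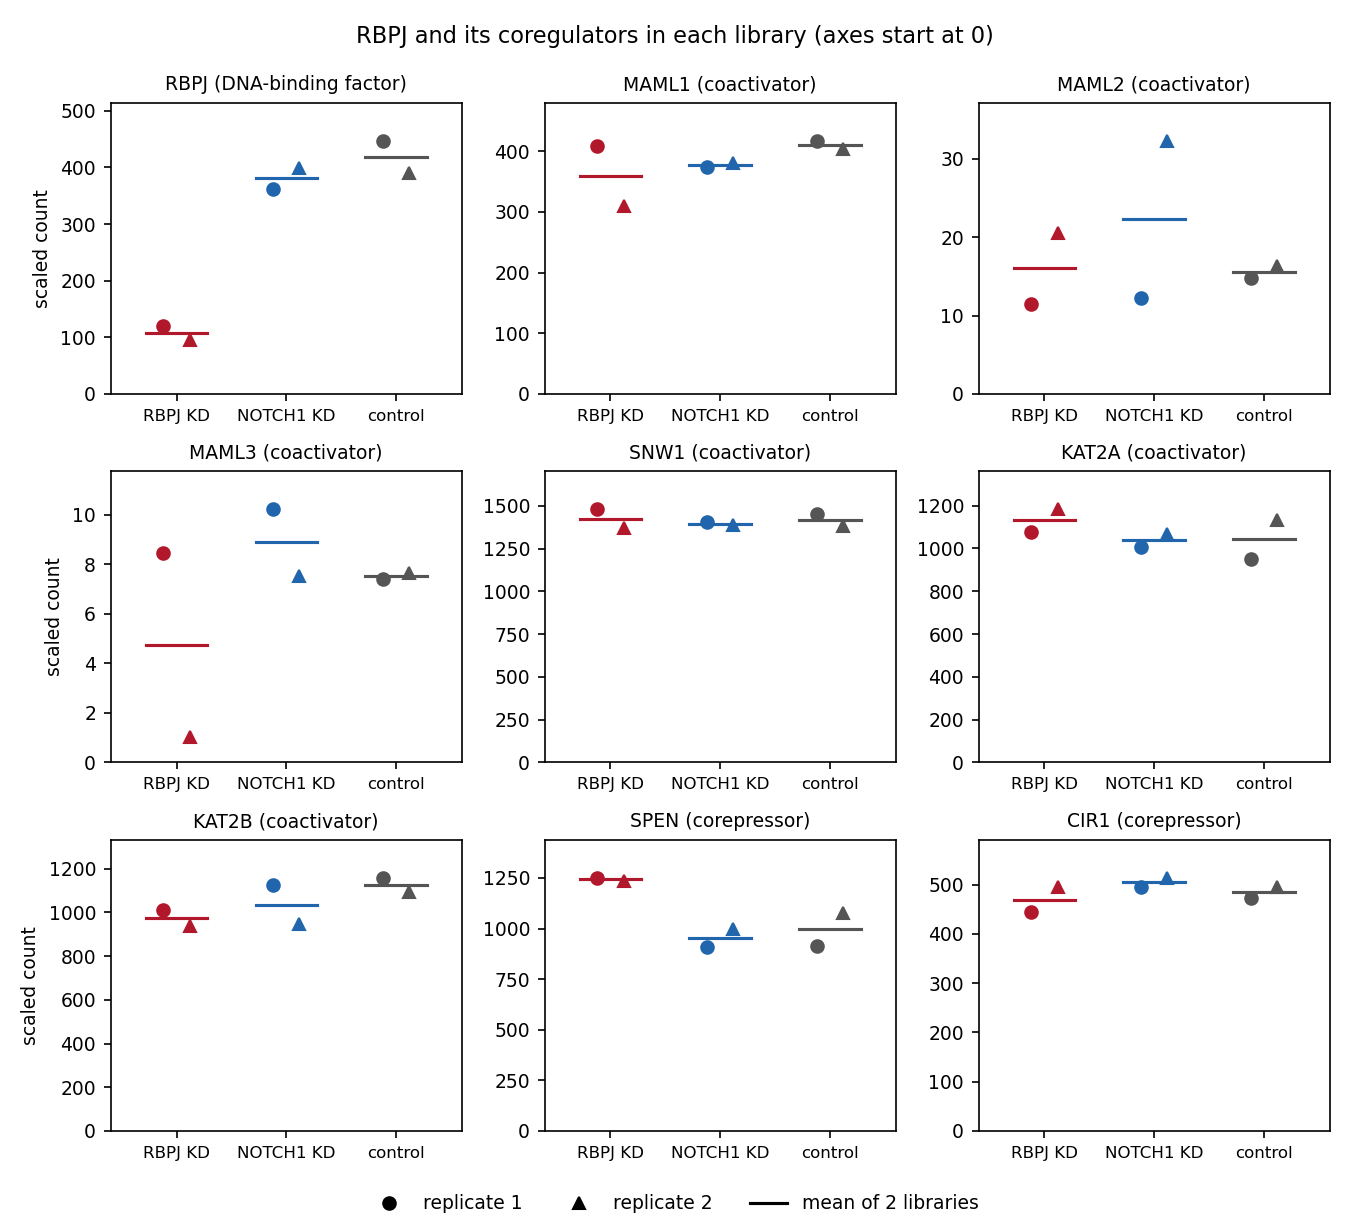
Scaled counts (vertical axes, starting at 0) of RBPJ, its 6 coactivators and its 2 corepressors in each library, by siRNA group. Circles are replicate 1, triangles replicate 2 and lines the mean of 2 libraries; RBPJ stands at 94.5 to 121 in its own knockdown, SPEN is highest there at 1235 and 1251, and SNW1 hardly varies between libraries.

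The mastermind coactivators differed in how firmly they could be read. MAML1, which recruits the acetyltransferase EP300 to the complex, had 409 and 309 in the RBPJ knockdown, 373 and 380 in the NOTCH1 knockdown and 417 and 403 in the control. Replicate 1 of the RBPJ knockdown lay among the controls and replicate 2 below every other library. MAML1 had a log2 fold change of -0.21 in the RBPJ knockdown (95% interval -0.56 to 0.15; limma, adjusted p = 0.983). Without replicate 1 of the RBPJ knockdown it was -0.41, and without replicate 2 of that group 0.00. Both NOTCH1 knockdown libraries lay below both controls, by a small amount, at a log2 fold change of -0.12 (95% interval -0.47 to 0.23; limma, adjusted p = 0.912).

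MAML2, which in human salivary gland tumours is known as a fusion partner of CRTC1, was a low transcript here. It had 11.5 and 20.5 in the RBPJ knockdown, 12.3 and 32.3 in the NOTCH1 knockdown and 14.8 and 16.4 in the control. The libraries of each knockdown lay on either side of the controls. Divided by the value that 1 read is worth in a library, these levels come to about 15 and 20 reads in the RBPJ knockdown, 12 and 29.8 in the NOTCH1 knockdown and 14 and 15.1 in the control. The 95% interval of the log2 fold change was wide, from -1.20 to 1.17 in the RBPJ knockdown and from -0.84 to 1.53 in the NOTCH1 knockdown (limma, adjusted p = 0.998 and 0.931), so a doubling lay inside both intervals. MAML3, the third mastermind protein, was lower still, at 8.46 and 1.03 in the RBPJ knockdown, 10.2 and 7.54 in the NOTCH1 knockdown and 7.40 and 7.63 in the control. Replicate 2 of the RBPJ knockdown was the lowest library, with about 1 read against 7 to 11 in the others, and no fold change is given.

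SNW1, also called SKIP, binds the NOTCH intracellular domain and corepressor complexes alike and is a core component of the spliceosome. Its scaled count was 1480 and 1368 in the RBPJ knockdown, 1403 and 1389 in the NOTCH1 knockdown and 1453 and 1382 in the control. The groups overlapped and their means lay close together. SNW1 differed by 0.01 on the log2 scale in the RBPJ knockdown (95% interval -0.23 to 0.24; limma, adjusted p = 0.998) and -0.02 in the NOTCH1 knockdown (95% interval -0.26 to 0.21; limma, adjusted p = 0.981). Of all members SNW1 had the smallest spread: the SD of log2 values within groups was 0.05, and 94.9% of the tested genes had an SD at least as large, with a median of 0.18.

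KAT2A (GCN5) and KAT2B (PCAF) are paralogous histone acetyltransferases, the catalytic subunits of SAGA and ATAC complexes, and both have been found with the NOTCH complex. KAT2A had 1079 and 1183 in the RBPJ knockdown, 1008 and 1068 in the NOTCH1 knockdown and 950 and 1135 in the control. The RBPJ knockdown libraries lay above the NOTCH1 knockdown libraries, and overlapped the control. The fitted log2 fold change was 0.12 in the RBPJ knockdown (95% interval -0.15 to 0.39; limma, adjusted p = 0.989) and 0.00 in the NOTCH1 knockdown (95% interval -0.27 to 0.27; limma, adjusted p = 0.998).

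KAT2B had 1010 and 939 in the RBPJ knockdown, 1124 and 947 in the NOTCH1 knockdown and 1159 and 1095 in the control. Both RBPJ knockdown libraries lay below both controls, while the NOTCH1 knockdown overlapped each of the other groups. For KAT2B the log2 fold change was -0.21 in the RBPJ knockdown (standard error 0.12, 95% interval -0.48 to 0.06; limma, adjusted p = 0.983), and -0.13 in the NOTCH1 knockdown (limma, adjusted p = 0.87). The ratio of KAT2A to KAT2B within a library was 1.07 and 1.26 in the RBPJ knockdown, 0.896 and 1.13 in the NOTCH1 knockdown and 0.820 and 1.04 in the control. By value the ratio was highest in the RBPJ knockdown, but that group overlapped the NOTCH1 knockdown.

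SPEN, known as MINT in mouse and SHARP in human, is a very large RNA-binding corepressor that competes with the NOTCH intracellular domain for RBPJ. It had 1251 and 1235 in the RBPJ knockdown, 908 and 998 in the NOTCH1 knockdown and 913 and 1078 in the control. Both RBPJ knockdown libraries lay above all 4 other libraries, whereas the NOTCH1 knockdown and the control overlapped. The means were 1243 ± 11.5 in the RBPJ knockdown and 995.7 ± 117 in the control (SD, n = 2 each), a ratio of 1.25. The log2 fold change of 0.32 (standard error 0.12) had an unadjusted p of 0.0211 and did not pass over all genes (limma, adjusted p = 0.983). Against the NOTCH1 knockdown it was 0.38 (standard error 0.12, limma, unadjusted p = 0.00848, adjusted p = 0.999). That fold change uses no control library, but its standard error and p-values draw on the spread of all 6 libraries. Fitted on the RBPJ and NOTCH1 knockdown libraries alone, it had an adjusted p of 0.716 (limma). For the NOTCH1 knockdown against the control the log2 fold change of SPEN was -0.06 (95% interval -0.33 to 0.21, limma, adjusted p = 0.952). Without replicate 1 of the control the value in the RBPJ knockdown was 0.20, and without replicate 2 of the control it was 0.44. A change at least as large as that of SPEN, in either direction, was found in 17.5% of the tested genes. An unadjusted p below 0.05 (limma) was found for 524 of 12070 genes in the RBPJ knockdown against the control. Against the NOTCH1 knockdown it was found for 439.

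CIR1, a corepressor that links RBPJ to histone deacetylases, had 444 and 495 in the RBPJ knockdown, 495 and 514 in the NOTCH1 knockdown and 474 and 495 in the control. The groups met at about the same level, and each overlapped the control. CIR1 differed by -0.05 on the log2 scale in the RBPJ knockdown (95% interval -0.34 to 0.25; limma, adjusted p = 0.995) and 0.06 in the NOTCH1 knockdown (95% interval -0.24 to 0.35; limma, adjusted p = 0.955). SPEN and CIR1 therefore gave no common direction for the corepressors.

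**Figure D2:**
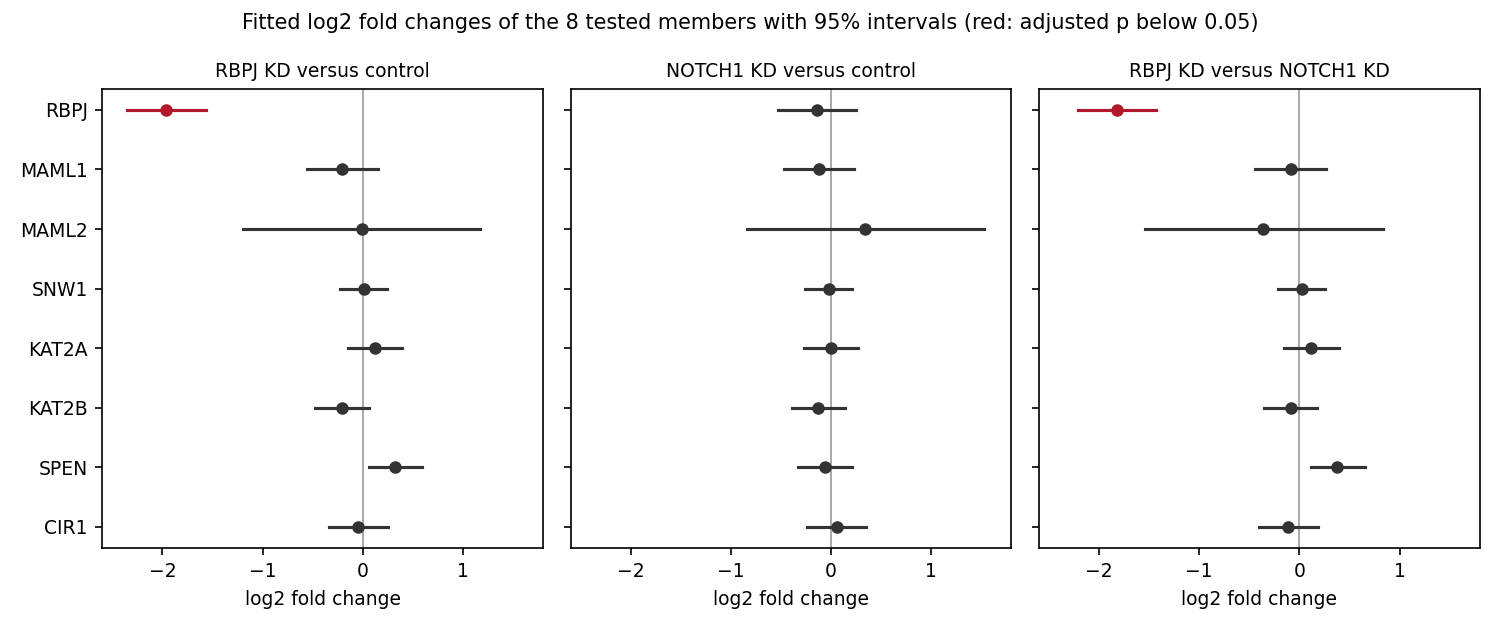
Fitted log2 fold changes (horizontal axes; points) with 95% intervals (lines) for the 8 tested members in the RBPJ knockdown against the control, the NOTCH1 knockdown against the control, and the RBPJ knockdown against the NOTCH1 knockdown. Red marks an adjusted p below 0.05, reached by RBPJ alone at -1.96 and -1.82, and the interval of MAML2 is the widest.

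As a group the coregulators did not follow RBPJ. None of the 7 tested coregulators passed in the RBPJ knockdown or in the NOTCH1 knockdown. The NOTCH1 knockdown had 0 calls among all 12070 genes (0%), with 880 genes at an unadjusted p below 0.05. With a replicate block limma called 138 genes there and 12 in the RBPJ knockdown, none of them a coregulator of this set. The median log2 fold change of the 7 was -0.01 in the RBPJ knockdown and -0.02 in the NOTCH1 knockdown, against 0.00 and 0.01 over all tested genes. Of the 5 tested coactivators 2 were higher and 3 lower by sign in the RBPJ knockdown, and 1 was higher and 4 lower in the NOTCH1 knockdown. Both comparisons share the control libraries.

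Complete separation of the groups was counted for the tested members and for all tested genes. Of the 8 tested members 3 had RBPJ knockdown libraries that did not overlap the control, RBPJ and KAT2B below it and SPEN above it, where 32.1% of all tested genes did so. In the NOTCH1 knockdown 1 of 8 did not overlap the control, MAML1, against 35.9% of all tested genes. Between the RBPJ and NOTCH1 knockdowns 3 of 8 did not overlap, against 33.0%. Both shares for the RBPJ knockdown lie near the background. RBPJ and SPEN, 2 of 8, were also the members whose RBPJ knockdown libraries lay outside all 4 other libraries, against 10.6% of all tested genes, and 4.84% lay above all 4 as SPEN did.

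**Figure D3:**
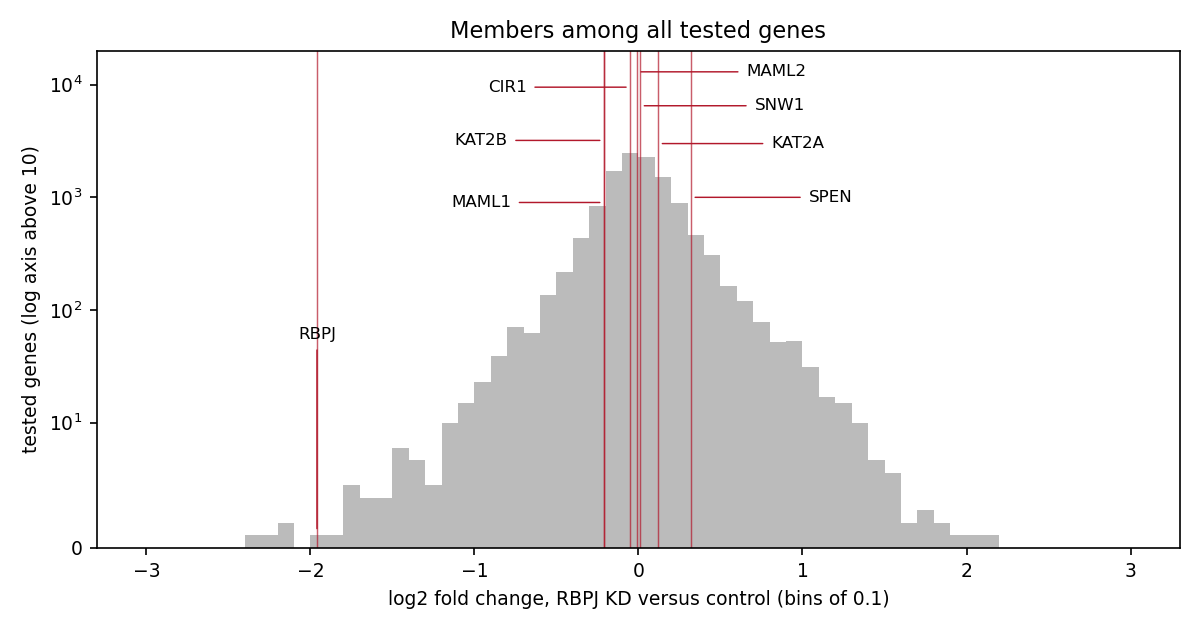
Number of tested genes (vertical axis, logarithmic above 10) by log2 fold change in the RBPJ knockdown against the control (horizontal axis, bins of 0.1), with red lines at the 8 tested members. RBPJ stands at -1.96 in the sparse lower tail, and the 7 others lie between -0.21 and 0.32, within the bulk of the distribution.

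Because RBPJ fell and its partners did not pass, the ratio of each partner's messenger RNA to that of RBPJ was set out within each library, where the library scaling cancels. The ratio of MAML1 to RBPJ was 3.39 and 3.27 in the RBPJ knockdown, 1.03 and 0.951 in the NOTCH1 knockdown and 0.933 and 1.03 in the control. Both RBPJ knockdown libraries stood well above all others, and the other groups overlapped. The ratio of SPEN to RBPJ was 10.4 and 13.1 in the RBPJ knockdown, 2.51 and 2.50 in the NOTCH1 knockdown and 2.04 and 2.76 in the control. By group mean, the ratios of MAML1, SNW1, KAT2A, KAT2B, SPEN and CIR1 to RBPJ were 3.39 to 4.88 times the control ratio in the RBPJ knockdown, lowest for MAML1 and KAT2B and highest for SPEN. In the NOTCH1 knockdown these 6 were 1.01 to 1.14 times the control ratio. All 6 share RBPJ as divisor, and its mean was 9.19% lower in that knockdown than in the control, which raises them together. The low transcript MAML2 stood at 4.17 times the control ratio in the RBPJ knockdown and at 1.53 times in the NOTCH1 knockdown. The ratio of MAML3 to RBPJ was 0.0701 and 0.0109 in the RBPJ knockdown, 0.0283 and 0.0189 in the NOTCH1 knockdown and 0.0165 and 0.0195 in the control, so that each knockdown overlapped the control. The direction of the 6 ratios in the RBPJ knockdown, and much of their size, follow from the fall of RBPJ itself to 0.257 of the control mean. With 2 libraries a group an exact permutation test could not fall below the threshold, so none was run. The smallest p such a test allows is 0.333, two-sided. Since the counts are not known to be per length, a ratio compares libraries and does not give the number of molecules per RBPJ transcript.

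The ratio of SPEN to MAML1 sets a corepressor against a coactivator without RBPJ in the quotient. It was 3.06 and 4.0 in the RBPJ knockdown, 2.43 and 2.63 in the NOTCH1 knockdown and 2.19 and 2.68 in the control. The RBPJ knockdown libraries were the highest, while the NOTCH1 knockdown lay within the control range. This pair was chosen after the values were seen, so the difference is a description.

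**Figure D4:**
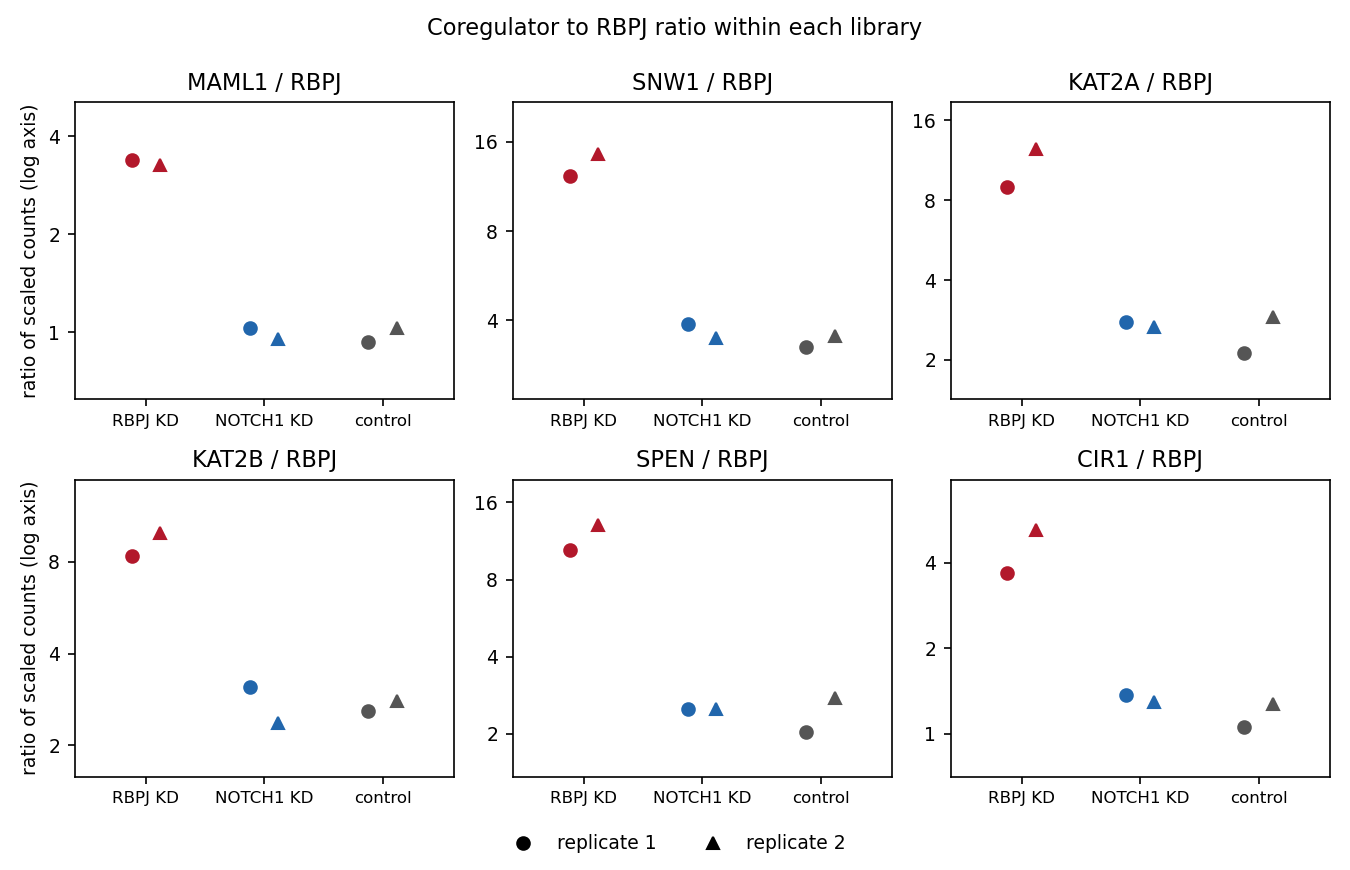
Ratio of the scaled count of 6 coregulators to that of RBPJ (vertical axes, logarithmic) within each library, by siRNA group; circles are replicate 1 and triangles replicate 2. In each panel both RBPJ knockdown libraries lie above the other 4, with SPEN to RBPJ at 10.4 and 13.1 against 2.04 to 2.76.

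The genes around these members in the pathway were also without calls. Over 7 lists of receptors and ligands, targets, other corepressors, other coactivators, acetyltransferase complexes, spliceosome partners and protein relatives, 86 of 93 genes were tested. None passed in the RBPJ knockdown (46 higher and 40 lower by sign, 3 at an unadjusted p below 0.05) and none in the NOTCH1 knockdown (45 higher and 41 lower, 9 at an unadjusted p below 0.05). Over all 12070 tested genes only 1 passed in the RBPJ knockdown (0.00829%) and 0 in the NOTCH1 knockdown. At an unadjusted p below 0.05 (limma) there were 524 and 880 of them. The lack of calls is therefore no trait of these lists.

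Of 24 other corepressors, subunits of SIN3A, CTBP, TLE and KDM1A complexes among them, 14 were higher and 10 lower by sign in the RBPJ knockdown, and their median log2 fold change was 0.04. TLE3, a Groucho-type corepressor, had the smallest p there. It had 1394 and 1332 in the RBPJ knockdown, 1427 and 1316 in the NOTCH1 knockdown and 1123 and 1101 in the control, so that both knockdowns lay above both controls (log2 fold change 0.29 and 0.30; limma, adjusted p = 0.983 and 0.566). TLE1, a related corepressor, followed in the RBPJ knockdown at a log2 fold change of 0.34. The median in the NOTCH1 knockdown was also 0.04, and L3MBTL3, which binds RBPJ directly and recruits a histone demethylase, had the smallest p. L3MBTL3 had 208 and 182 in the RBPJ knockdown, 126 and 152 in the NOTCH1 knockdown and 226 and 204 in the control. The NOTCH1 knockdown libraries were the lowest (log2 fold change -0.63; limma, adjusted p = 0.473), and TLE4 stood at 0.22.

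Among 7 other coactivators and factors of NOTCH turnover, the medians were -0.09 in the RBPJ knockdown and -0.15 in the NOTCH1 knockdown. EP300 itself had 6217 and 5984 in the RBPJ knockdown, 5691 and 6142 in the NOTCH1 knockdown and 4994 and 5950 in the control. MED12, of the Mediator kinase module, had 1243 and 1055 in the RBPJ knockdown, 1142 and 1347 in the NOTCH1 knockdown and 1382 and 1478 in the control, and both knockdowns lay below the control (log2 fold change -0.32 and -0.20; limma, adjusted p = 0.983 and 0.774). CCNC, the cyclin of that module, had a log2 fold change of -0.16 in the RBPJ knockdown. FBXW7, a ubiquitin ligase subunit that marks the NOTCH intracellular domain for degradation, and CDK19, a Mediator kinase, had -0.24 and -0.53 in the NOTCH1 knockdown.

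No gene of the complexes that KAT2A, KAT2B and SNW1 join passed. The 24 SAGA and ATAC subunits had a median log2 fold change of -0.01 in each knockdown, with 11 higher and 13 lower by sign in the RBPJ knockdown and 10 higher and 14 lower in the NOTCH1 knockdown. TAF9, TRRAP and TAF12 had the smallest p in the RBPJ knockdown, at -0.28, 0.15 and -0.33, and TADA1, TADA2A and USP22 in the NOTCH1 knockdown, at -0.40, -0.19 and 0.13. The 14 spliceosome partners of SNW1 had medians of 0.02 in the RBPJ knockdown, with 8 higher and 6 lower by sign, and 0.06 in the NOTCH1 knockdown, with 11 higher and 3 lower. Their range in the RBPJ knockdown was narrow, from -0.12 to 0.13, with XAB2, CWC15 and PRPF19 at 0.11, 0.13 and 0.10, and in the NOTCH1 knockdown CWC15, AQR and PRPF19 stood at 0.22, -0.14 and 0.12. RBM15 and RBM15B, which share the domain layout of SPEN, had log2 fold changes of -0.06 and 0.17 in the RBPJ knockdown and -0.15 and 0.12 in the NOTCH1 knockdown.

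Upstream of RBPJ, the 7 tested receptors and ligands had medians of 0.17 in the RBPJ knockdown and -0.09 in the NOTCH1 knockdown, with the ligands JAG1, JAG2 and DLL3 at -0.30, 0.17 and -0.37 in the RBPJ knockdown. After the NOTCH1 siRNA, NOTCH1, JAG2 and NOTCH2 stood at -1.0, 0.26 and -0.47. NOTCH1, the other targeted gene, had 50.0 and 125 in the RBPJ knockdown, 48.0 and 49.5 in the NOTCH1 knockdown and 69.7 and 140 in the control. It did not pass in the group that received its siRNA (limma, adjusted p = 0.634), and replicate 1 of the RBPJ knockdown was as low as that group. The 8 tested targets had medians of 0.18 and -0.07, with HEYL, HEY2 and HEY1, repressors of the HEY family, at 0.69, -0.55 and 0.37 in the RBPJ knockdown. For the NOTCH1 knockdown MYC, GATA3 and HEYL stood at -0.94, 0.78 and 0.90, all short of the threshold (limma, adjusted p = 0.461, 0.466 and 0.531).

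The tested genes whose profile over the 6 libraries was nearest to that of RBPJ were CYP4F2, TMEM171, CNGB3, CARMIL3 and GALR2. Nearness was the root mean square difference between log2 profiles, each centred on its own mean, and came to 0.24, 0.26, 0.33, 0.34 and 0.35, against an SD of 0.90 for the RBPJ profile itself. CYP4F2, a fatty acid hydroxylase, had 31.0 and 18.3 in the RBPJ knockdown, 60.0 and 61.7 in the NOTCH1 knockdown and 90.3 and 68.4 in the control. Both RBPJ knockdown libraries lay below the other 4, and the NOTCH1 knockdown lay just below the control. TMEM171 had 1.97 and 2.24 in the RBPJ knockdown, 13.5 and 15.2 in the NOTCH1 knockdown and 15.6 and 14.8 in the control. The RBPJ knockdown libraries held about as little as a few reads each, with the other groups overlapping. CNGB3, a channel subunit of cone photoreceptors, had 17.7 and 14.4 in the RBPJ knockdown, 29.6 and 37.7 in the NOTCH1 knockdown and 49.7 and 48.0 in the control. None of the 5 passed in the RBPJ knockdown, with log2 fold changes from -2.38 to -1.32 (limma, adjusted p = 0.62 for CYP4F2 and 0.983 for the others). All 5 were chosen for this pattern, so it says nothing of a link to RBPJ.

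**Figure D5:**
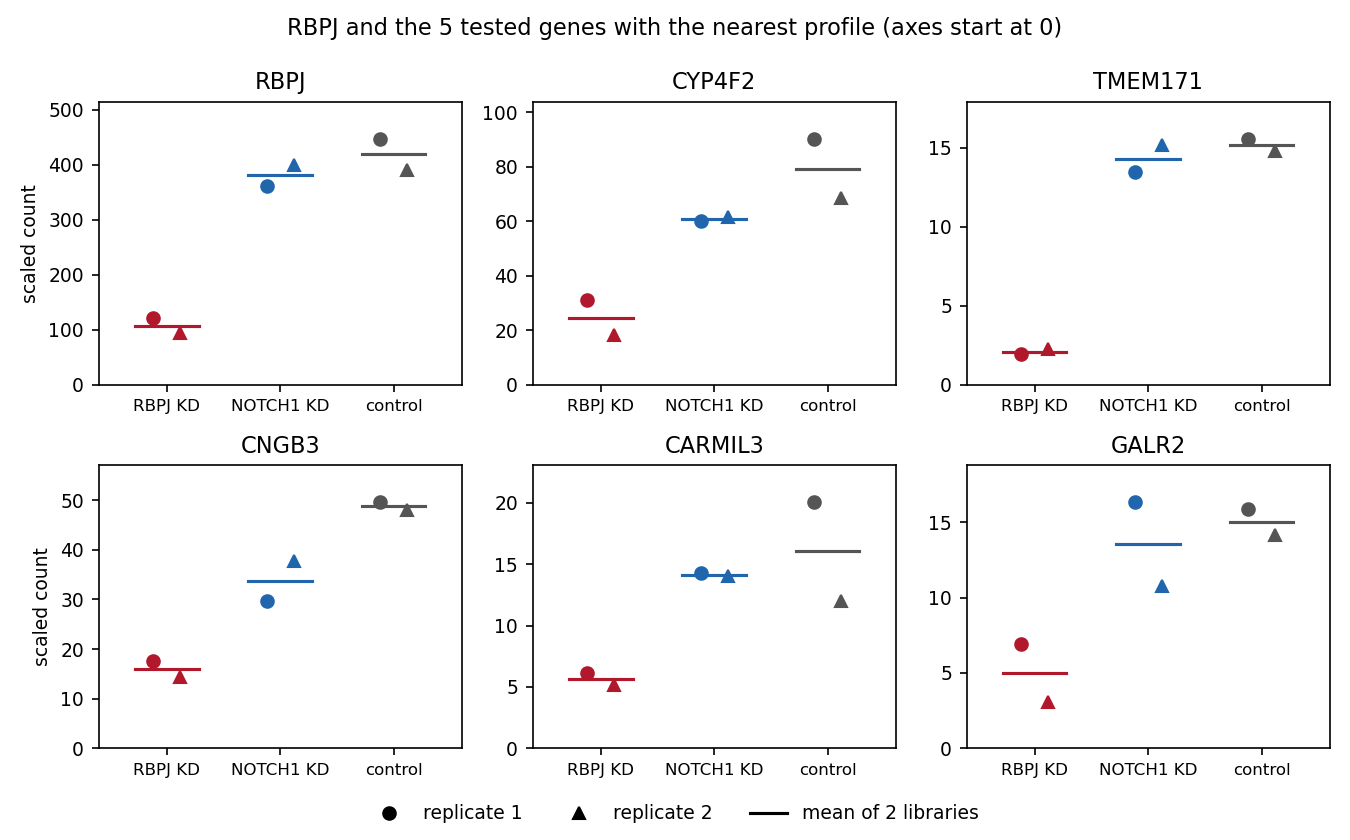
Scaled counts (vertical axes, starting at 0) of RBPJ and of the 5 tested genes with the nearest profile over the 6 libraries, by siRNA group; circles are replicate 1, triangles replicate 2 and lines the mean of 2 libraries. All 6 genes are lowest in both RBPJ knockdown libraries, at 94.5 to 121 for RBPJ and 18.3 to 31.0 for CYP4F2.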

How the data were processed

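Polyadenylated RNA of 6 libraries was measured. Per the labels' protocols, GFP and RFP spike-in RNA was added before extraction; a spike-in scaling was not analysed here. The submitters' processing notes name Salmon 0.14.1, DESeq2 and the build ARS-UCD1.2 without saying what each did; annotation, filters and strand setting: not given in the sources used here. The deposited signal values are scaled counts, as judged from the values: 82.9% to 84.2% of low values lie within 0.1 of a whole multiple of a library's step. That was too few to recover reads, so no count model was run, and read numbers are approximate. Rows that lacked a gene symbol (2551 of 17922; 6.20% to 7.22% of the library totals) were dropped, and for a repeated symbol the row with the higher mean was kept.

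limma 3.58.1 (R 4.3.3) was fitted to log2(value + 1) with group means over all 6 libraries, a variance trend and 3 residual degrees of freedom, which understates fold changes of low genes. Intervals are 95%. On simulated counts for 12070 genes of the RBPJ knockdown comparison, the fit made 193 calls, 7 of them false. It recovered 87% of 100 genes changed 2-fold and 99% of 100 changed 4-fold. Their median log2 fold changes were 1 and 1.95, and recovery of falls was not tested. In the measured libraries of that comparison RBPJ passed at -1.96. TMEM171 at -2.38 and CYP4F2 at -1.68 did not (limma, adjusted p = 0.983 and 0.62). In the simulation each gene took its spread from a smooth curve on its mean, so none had a spread of its own. Many genes were changed together, which eases the adjusted threshold, whereas the measured comparison had 1 call. The recovered shares are therefore no estimate for the measured libraries, and a missing call does not show a gene unchanged. The members and lists were chosen with earlier results of these data known. All members were named; from each other list, the 3 genes of smallest p per comparison, or up to 4 called ones where at least 2 were called; and the 5 profiles nearest to RBPJ. A gene that this rule names is not reported here. Alternatives were other pseudocounts, filters, scalings, variance moderation, fits of only the groups compared, a replicate block and leaving out every library in turn. RefSeq of ARS-UCD2.0, another build, gave names only: 5 of 9 members overlap another annotated gene, none of them protein-coding, and reads of such genes or of near-identical copies cannot be told apart. Figures used matplotlib 3.10.9.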

Additional observations from a re-analysis of the deposited data

How the results depend on the processing

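RBPJ kept its direction in its own knockdown under every alternative run, from -2.13 to -1.78 over omitted libraries, and its call under all but 1: without the variance trend the log2 fold change of -1.96 had an adjusted p of 0.326. That setting left 0 genes and 0 members called in either comparison of the RBPJ knockdown. With a replicate block 12 genes passed in the RBPJ knockdown, 138 in the NOTCH1 knockdown and 15 between the knockdowns, and RBPJ remained the only member among them (adjusted p = 9.13e-07 in its own knockdown). The replicate numbers are not said to pair libraries. Differences between replicates correlated at 0.17 to 0.21 across genes between groups. Replicate 2 differed from replicate 1 in the same direction in all 3 groups for 5 of 8 tested members, MAML2, SNW1, KAT2A, KAT2B and CIR1, and for 37.7% of all tested genes.

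Over omitted libraries, 1 to 3 genes passed in the RBPJ knockdown with 1 member, 0 to 1 in the NOTCH1 knockdown with 0 members, and 0 to 3 between the knockdowns with 0 to 1 members. RBPJ between the knockdowns ran from -2.0 to -1.65. Signs of several uncalled members turned, and the cause was not tested. In the RBPJ knockdown, over omitted libraries, MAML1 ran from -0.41 to 0.00 without a turn of sign. In the same comparison MAML2 ran from -0.40 to 0.38, SNW1 from -0.05 to 0.06, KAT2A from -0.01 to 0.25 and CIR1 from -0.13 to 0.03. MAML2 was 0.00 with a pseudocount of 10 and SNW1 -0.01 after quantile normalization. In the NOTCH1 knockdown, MAML2 ran from -0.32 to 1.01, SNW1 from -0.06 to 0.01, KAT2A from -0.13 to 0.13 and SPEN from -0.18 to 0.06. Between the knockdowns, MAML1 ran from -0.29 to 0.12, MAML2 from -1.02 to 0.31, SNW1 from -0.03 to 0.08 and KAT2B from -0.21 to 0.04. SPEN stayed positive in the RBPJ knockdown in all of these, from 0.20 to 0.44, and KAT2B stayed negative, from -0.26 to -0.16. Neither passed in any fit that kept every library of the groups compared. MAML2 and MAML3 rest on about 1 to 30 reads a library; counting error and spread between libraries were not separated.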

Other observations

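Of the marker lists behind the checks of cell identity, no gene passed in either knockdown (limma, smallest adjusted p = 0.353, for LIN28A in the NOTCH1 knockdown). Among 14 tested oocyte transcripts, negative fold changes were found for 12 in the RBPJ knockdown and for 13 in the NOTCH1 knockdown, with medians of -0.76 and -0.77. Of all tested genes 49.7% and 51.1% were higher by sign. Both comparisons share the control libraries, and the summed oocyte level was higher in replicate 2 than in replicate 1 of every group. The zona pellucida gene ZP3, KHDC3L and MOS had log2 fold changes of -0.91, -1.04 and -1.76 in the RBPJ knockdown, and H1FOO, BTG4 and OOEP had -2.95, -1.98 and -0.77 in the NOTCH1 knockdown. KHDC3L and MOS overlapped the control there, while ZP3 in the RBPJ knockdown and H1FOO, BTG4 and OOEP in the NOTCH1 knockdown lay below both controls. The medians of 11 trophectoderm markers were -0.09 in the RBPJ knockdown and 0.19 in the NOTCH1 knockdown. TKDP1, IFNT2 and TEAD4 stood at -1.74, -0.85 and 0.14 in the RBPJ knockdown, and GATA3, TFAP2A and CDX2 at 0.78, -1.62 and 0.37 in the NOTCH1 knockdown. TKDP1 had 15.3 and 19.0 in the RBPJ knockdown and 175 and 19.7 in the control, so its difference rests on replicate 1 of the control.

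The medians of 7 tested inner cell mass markers were 0.05 in the RBPJ knockdown and 0.14 in the NOTCH1 knockdown. LIN28A, SALL4 and DPPA3 stood at 0.42, 0.24 and -0.09 in the RBPJ knockdown, and LIN28A, POU5F1 and SALL4 at 0.60, 0.20 and 0.24 in the NOTCH1 knockdown. Among 7 tested cumulus, granulosa and fibroblast markers (medians 0.07 and -0.15), DCN, CYP19A1 and COL1A1 had 0.88, 0.21 and 0.07 in the RBPJ knockdown, and CYP19A1, COL1A2 and LUM had 0.42, -0.25 and -0.66 in the NOTCH1 knockdown. Among 5 tested blood and immune markers (medians 0.07 and -0.14), CD68, CSF1R and LYZ had -0.58, -0.17 and 0.26 in the RBPJ knockdown, and CSF1R, CD68 and HBA had -0.68, -0.19 and 0.08 in the NOTCH1 knockdown.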
